A study of Homo sapiens with 18 samples.

Results

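The untreated HMC3 libraries are 3 of the 18 in a dose series of oxidized low-density lipoprotein (oxLDL), and were chosen by their label, oxLDL at 0 µg/ml for 24 h. HMC3 is an immortalized human line that the labels call microglial and wild type, and all 3 libraries come from this 1 line, grown in MEM with 10% fetal bovine serum, a supplement that itself carries lipoproteins. The labels give 1 batch value for all and do not say that the libraries came from separate cultures, so the spread given below may be technical. Poly-A RNA was read without strand on a NovaSeq. What follows describes which genes the line expressed without oxLDL, with no comparison of doses and no test.

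Microglia are the resident macrophages of brain and retina. They depend on the receptor CSF1R and its ligands CSF1 and IL34 and on the transcription factors PU.1 (SPI1) and IRF8, and in tissue they carry P2RY12, TMEM119 and CX3CR1. Oxidized lipoprotein is taken up by scavenger receptors such as CD36, MSR1 and OLR1. Inflammatory signals reach macrophages through Toll-like receptors and receptors for interleukins, tumour necrosis factor and interferons, and the NLRP3 inflammasome with PYCARD and CASP1 releases IL1B and IL18.

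Levels are FPKM, fragments scaled by the counted exon length in kilobases and by the library total, given as mean ± SD over the 3 libraries (n = 3) with the values of libraries 1, 2 and 3 in that order. A level of 1 FPKM or more was used as the limit above which a gene is described as expressed. Where the number of expressed genes of a list differed by more than 1.5 times at a limit of 1 count per 1000000 counted (CPM), which does not divide by length, that number is given too. The deposited table holds 13992 gene symbols, and no value in these libraries was 0. A symbol that is not in it is described as not listed, which gives no level. Being not listed could not be read as not expressed, because 28 of 269 members of broadly used gene families (10.4%) were not listed either. Among them were the ribosomal proteins RPS2 and RPS9 and the chaperonin subunit CCT8. The 28 also include paralogs such as RPL3L and PSMB11, and genes of the chromosome 6 region described next, such as PSMB8 and PSMB9. The 10.4% is thus not the share for broadly used genes elsewhere. On chromosome 6 from 28503296 to 33457544, the region of the HLA genes, 4 of 172 protein-coding genes were listed (2.33%), against 510 of 877 (58.2%) on the rest of that chromosome and 58.6% of all. This region holds TNF, LTA, LTB, AIF1, the complement genes C2, C4A, C4B and CFB, and the HLA genes. Genes of the lists that lie there and are not listed have no level here. They stay in the list sizes given below and count as not listed. In a bulk library, fewer cells with a transcript and less of it per cell cannot be told apart.

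The total counts recovered from the FPKM steps were 20560003, 27011701 and 27908485, of which 99.87% to 99.88% lay in the listed genes. Counting error sets the least error of any value, and without molecular identifiers copies made in PCR are counted as well. The libraries were close to each other. The median coefficient of variation (SD over mean) was 4.36% for genes at 1 FPKM or more, 3.01% at 100 FPKM or more, and 15.2% under 1 FPKM, where the median count was 36. Each pair of libraries still differed by more than counting error, with a mean squared deviation of 2.37 to 5.16 times sampling noise, so none was counted as a repeat of another.

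The promoters below, picked with the levels in view, set 3 genes that the line expressed highly beside a gene of microglia and a gene of lipid uptake that were not listed. Each is the 90 bases just before the annotated transcription start on the gene's strand, 5′ to 3′, from RefSeq on GRCh38.p14. CCN2 (chr6:131951373-131951462, minus strand), a secreted matricellular factor, and MT2A (chr16:56608494-56608583, plus strand), a metal-binding metallothionein, are shown with TATAAA in capitals. FN1 (chr2:215436069-215436158, minus strand), the matrix protein fibronectin, is shown with each CG in capitals, and so are P2RY12 (chr3:151384754-151384843, minus strand), the ADP receptor of tissue microglia, and CD36 (chr7:80602117-80602206, plus strand).
CCN2: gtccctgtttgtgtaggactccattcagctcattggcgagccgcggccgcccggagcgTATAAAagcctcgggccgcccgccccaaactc
MT2A: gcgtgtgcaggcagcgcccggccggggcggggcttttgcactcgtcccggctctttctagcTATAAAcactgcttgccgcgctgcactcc
FN1: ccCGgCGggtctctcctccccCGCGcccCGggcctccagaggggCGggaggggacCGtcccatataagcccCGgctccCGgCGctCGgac
P2RY12: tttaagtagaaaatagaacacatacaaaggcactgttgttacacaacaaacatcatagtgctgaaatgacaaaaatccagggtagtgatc
CD36: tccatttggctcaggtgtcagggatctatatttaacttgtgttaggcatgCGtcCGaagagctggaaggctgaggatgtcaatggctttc
The TATAAA of CCN2 began 32 bases before the start and that of MT2A 29 bases before it. The window of FN1 held 11 CG pairs, that of CD36 held 2 and that of P2RY12 held 0.

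The same features were counted over the 15843 promoters of the RefSeq table, using 250 bases before to 50 after the start. A window was taken as CpG-rich at a GC content of at least 50% and at least 0.6 times the CG pairs its bases would give. It was CpG-rich for 34.4% of 6165 genes not listed, 66.0% of 1729 genes under 1 FPKM, 82.5% of 4029 genes from 1 to 10, 88.2% of 3397 genes from 10 to 100, and 89.1% of 523 genes at 100 FPKM or more. TATAAA, searched on the gene's strand with its first base 40 to 20 bases before the start, lay in 3.64% of all windows. It lay in 6.93% of those not listed, 0.968% from 1 to 10 FPKM and 4.97% (26 genes) at 100 FPKM or more. Of the microglia markers below, 0 of 5 listed and 0 of 16 not listed had a CpG-rich window, whereas 4 of 5 myeloid transcription factors and 7 of 9 HOXA genes that were not listed had one. These matches describe letters in the windows and not binding of a factor.

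At 1 FPKM or more, 10489 genes were expressed (10514, 10530 and 10444 in the single libraries). Of these, 9525 were protein coding, of 20056 such genes in RefSeq, and 552 were long non-coding RNAs. At 10 FPKM or more there were 4831 genes, at 100 or more 655 and at 1000 or more 61. The median of all listed genes was 4.56 FPKM, and means ran from 0.0073 to 5853. The 100 highest genes held 34.8% ± 0.67 of the summed FPKM.

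**Figure D1:**
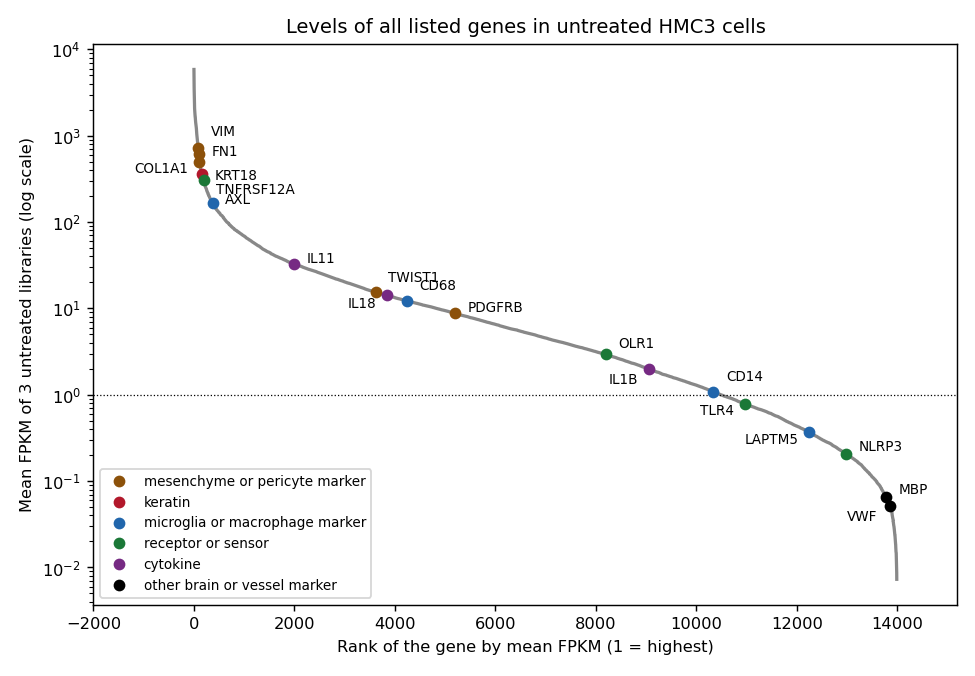
Mean FPKM (log axis) of the 13992 listed genes against rank, highest first, with a dotted line at 1 FPKM and coloured points for named genes. VIM, FN1 and COL1A1 sit near the top of the curve at 496 to 725 FPKM, CD14 lies at the dotted line (1.08) and MBP and VWF lie near the foot (0.065 and 0.052).

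The highest gene was TMSB10, which encodes an actin-binding thymosin (chromosome 2, 84905656 to 84906671). Its level was 5751, 5579.9 and 6228, a mean of 5853 ± 336 FPKM, and it ranked 1 in every library. Of the 40 highest genes, 16 encode cytosolic ribosomal proteins and 10 are encoded by the mitochondrial genome. The next 4 were mitochondrial: ND4 of complex I (4403 ± 356) and the cytochrome oxidase subunits COX3 (4389 ± 203), COX1 (4186 ± 234) and COX2 (3505 ± 314), with overlapping libraries for ND4, COX3 and COX1. The 13 mitochondrial protein genes held 8.20% ± 0.39 of the summed FPKM, and 75 ribosomal protein genes 15.4% ± 0.37. Other genes in the first 40 were GAPDH of glycolysis (3257 ± 93), the actin ACTB (2788 ± 152), the tubulin TUBA1B (1926 ± 74), the myosin light chain MYL6 (1911 ± 77), the ferritin light chain FTL (2058 ± 74), the metallothionein MT2A (1785 ± 105), and the galectin LGALS1 (1363 ± 96). The cells carried high levels of cycle genes. All 23 genes of the proliferation list were listed and expressed, led by the cyclin CCNB1 (338, 337 and 336), the replication clamp PCNA (231, 221 and 236) and the survivin gene BIRC5 (202, 202 and 205), and MKI67, the usual marker of cycling cells, stood at 45.6 ± 2.7. CDKN2A, which encodes inhibitors of the cell cycle, was also high at 84.1 ± 4.5. It overlaps CDKN2B-AS1 on the opposite strand.

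The genes that define microglia were for the most part not listed, so the microglial label rests here on few measured genes. Of 27 microglia markers, 6 were listed and 5 were expressed, where 11751 of 20056 protein-coding genes were listed. CD68, a lysosomal glycoprotein of macrophages (chromosome 17, 7579638 to 7582111), had 12.4, 12.4 and 11.9 (12.3 ± 0.28). CD68 is also present in other cell types with many lysosomes, and it overlaps MPDU1-AS1 on the opposite strand, whose reads cannot be told apart. The invariant chain CD74 stood at 2.16 ± 0.31, the secreted OLFML3 at 1.08 ± 0.15, and CD14, the coreceptor for bacterial lipopolysaccharide (chromosome 5, 140631732 to 140633701), at 0.976, 1.17 and 1.09 (1.08 ± 0.098). The last 2 straddled 1 FPKM, which leaves 3 microglia markers when all libraries must reach it, since OLFML3 was under it in library 2 and CD14 in library 1, and CD14 overlaps TMCO6. LAPTM5, a lysosomal protein of blood cells, was at 0.367 ± 0.11, from counts of 14, 29 and 18. P2RY12, TMEM119, CX3CR1, SALL1, GPR34, CSF1R, TREM2, TYROBP, C1QA, C1QB, C1QC, ITGAM and PTPRC were not listed. Of the 20 protein-coding genes that flank each on the chromosome, 7 were listed around P2RY12, 13 around TMEM119 and 12 around CX3CR1. The number was 13 around CSF1R and 10 around TREM2, against 0 around AIF1 and HLA-DRA. Stretches with few listed genes also lay on other chromosomes, as given below for CLEC7A, CSF2RA, CCL3, CCL4 and CCL5. Listed neighbours cannot tell a silent gene from one left out of the deposited symbols.

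Of 15 myeloid transcription factors, 8 were listed and 4 expressed (7 by CPM). CEBPB, a factor of macrophages, liver and many stressed cells (chromosome 20, 50190583 to 50192690), was highest at 27.2, 27.6 and 27.96 (27.6 ± 0.37), followed by BATF3 (8.25 ± 0.89), RUNX1 (7.802 ± 0.25) and CEBPD (1.47 ± 0.11). CEBPA (0.488 ± 0.042), KLF4 (0.456 ± 0.092), IRF5 (0.406 ± 0.039) and TAL1 (0.0656 ± 0.0062) were under 1 FPKM. SPI1 and IRF8, the factors on which microglia depend, and MAF, MEF2C, IKZF1 and SALL3 were not listed. Of 20 neighbours, 13 of SPI1 and 17 of IRF8 were listed, where 58.6% of all protein-coding genes were. These counts give no level for SPI1 or IRF8.

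Of 24 markers of macrophages and monocytes, 5 were listed and 4 expressed. AXL, a receptor that recognizes dying cells through the bridging protein GAS6 (chromosome 19, 41219223 to 41261766), was at 166, 162 and 165 (164 ± 1.8), rank 371, and GAS6 at 17.3 ± 0.86. MERTK of the same receptor family was at 3.21 ± 0.27, below GAS6 in every library. The proteoglycan VCAN was at 2.23 ± 0.11, while CD163, MRC1, MSR1, MARCO, LYZ, CYBB and ITGAX were not listed. Among genes that mark disease-associated microglia, the 8 of 15 that were listed were all expressed, with a median of 30.5 FPKM: the cathepsins CTSD (118 ± 2.7), CTSL (36.96 ± 1.2) and CTSB (16.98 ± 0.85), the tetraspanins CD63 (106 ± 5.3) and CD9 (30.9 ± 1.2), the fatty acid carrier FABP5 (30.2 ± 3.8), the galectin LGALS3 (8.24 ± 0.36) and the apolipoprotein APOE (3.102, 2.89 and 3.098, mean 3.03 ± 0.12). TREM2, LPL, SPP1, GPNMB, CST7, CLEC7A and ITGAX were not listed, and around CLEC7A only 3 of 20 neighbours were. The 53.3% of this list that was listed compares with 58.6% of all protein-coding genes. Of listed protein-coding genes in general, 9525 of 11751 were expressed. Whether the line carries a disease-associated state was not tested.

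Genes of mesenchyme were by contrast among the highest of the line. Of 26 members of the fibroblast and mesenchyme list, 18 were listed and 15 expressed, and their summed FPKM was 2377 to 2534 per library, against 74.8 to 76.1 for the listed microglia markers. The intermediate filament gene VIM (chromosome 10, 17228241 to 17237593) had 722, 701 and 752 (725 ± 26, rank 84). FN1 (chromosome 2, 215360865 to 215436068) had 662, 618 and 568 (616 ± 47), with library 1 highest. The collagen chain COL1A1 (chromosome 17, 50184101 to 50201631) had 525, 476 and 486 (496 ± 25), and the collagen-binding SPARC 374, 342 and 379.8 (365 ± 20.5). These levels put all 4 within the first 155 genes, and VIM was above FN1, FN1 above COL1A1 and COL1A1 above SPARC in every library. THY1, a surface antigen of fibroblasts (96.5 ± 2.8), the collagen VI chains COL6A1 (32.01 ± 0.78) and COL6A2 (30.3 ± 0.93), N-cadherin CDH2 (25.1 ± 0.80), endoglin ENG (19.9 ± 0.52) and the mesenchymal factor TWIST1 (15.4 ± 0.19) were over 10 FPKM. COL1A2, whose product joins that of COL1A1 in type I collagen, stood at only 0.9302, 0.825 and 1.01 (0.922 ± 0.093), and COL3A1, DCN, LUM, PDGFRA, PRRX1 and POSTN were not listed. VIM overlaps VIM-AS1, FN1 overlaps ATIC and THY1 overlaps USP2-AS1 on opposite strands.

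Of 15 markers of pericytes and smooth muscle, 12 were listed and 9 expressed. The actin-binding TAGLN (141, 129 and 141, mean 137 ± 6.9) and CNN1 (34.1 ± 1.9), the adhesion molecule MCAM (73 ± 1.3), the receptor PDGFRB (chromosome 5, 150113839 to 150155845, at 9.201, 8.796 and 8.28, mean 8.76 ± 0.46) and the proteoglycan CSPG4 (6.32 ± 0.53) led them, with the factors FOXC1 (4.95 ± 0.33) and TBX18 (1.96 ± 0.21), NOTCH3 (2.09 ± 0.18) and the potassium channel KCNJ8 (1.23 ± 0.22). Several defining genes were low: smooth muscle actin ACTA2 (0.516 ± 0.084), RGS5 (0.183 ± 0.021) and ABCC9 (0.1398 ± 0.021), and MYH11 and DES were not listed. TAGLN overlaps PCSK7, and ACTA2 overlaps FAS, on opposite strands.

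Genes of other nervous tissue cells were listed in part. In the astrocyte list, 7 of 11 were listed and 6 expressed (3 at a limit of 2 FPKM), led by the gap junction gene GJA1 (38.1 ± 1.4), with SOX9 (2.08 ± 0.15), the glutamine synthetase GLUL (1.61 ± 0.065) and the glutamate carrier SLC1A3 (1.45 ± 0.23) near 2 FPKM or lower, and GFAP, AQP4, SLC1A2 and S100B were not listed. Of 14 neuronal and progenitor genes, 7 were listed and 3 expressed (6 by CPM), the tubulin TUBB3 (31.6 ± 0.86), PAX6 (2.64 ± 0.18) and SNAP25 (1.3 ± 0.22), and of 10 oligodendrocyte genes 3 were listed and 2 expressed, CNP (35.8 ± 0.31) and CSPG4. MBP, the myelin basic protein, was at 0.0648 ± 0.012, and MOG and MAG were not listed. Of 11 genes of Müller glia and retina, 3 were listed and MITF (3.17 ± 0.081) was the 1 expressed member (2 by CPM), and the retinal genes CRX, RLBP1 and RPE65 were not listed. Of 11 endothelial genes, 3 were listed, all under 1 FPKM (TIE1 0.868 ± 0.12, ESAM 0.435 ± 0.16 and VWF 0.0517 ± 0.0071), and 8 have no level. TIE1 was the 1 that passed by CPM. No lymphocyte gene of 10 was listed.

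Simple keratins were high. Of 11 epithelial genes, 7 were listed and 3 expressed (5 by CPM). KRT18 (chromosome 12, 52948855 to 52952906) had 362, 358 and 368 (363 ± 5.2, rank 157), KRT8 had 149, 143 and 145 (146 ± 3.1) and KRT7 had 139.7, 127 and 147 (138 ± 10.1). KRT8 and KRT18, which pair in 1 filament, have annotated transcripts that overlap each other on opposite strands, and KRT7 overlaps KRT7-AS. The remaining listed epithelial genes were under 1 FPKM, with E-cadherin CDH1 at 0.274 ± 0.052 and the splicing factor ESRP1 at 0.447 ± 0.036, and EPCAM, KRT5 and KRT19 were not listed.

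Homeobox genes of the HOX clusters, which record position along the body axis, were listed unevenly by cluster. Of the HOXB genes, 9 of 10 were listed and 6 expressed: HOXB7 (15.6, 16.6 and 18.2, mean 16.8 ± 1.3), HOXB2 (6.87 ± 0.22), HOXB4 (4.82 ± 0.68), HOXB6 (4.32 ± 0.18), HOXB5 (1.56 ± 0.21) and HOXB9 (1.24 ± 0.13). HOXB3 (0.946 ± 0.043), HOXB13 (0.608 ± 0.14) and HOXB8 (0.435 ± 0.10) were under 1 FPKM. HOXC6 (1.005, 1.56 and 1.73, mean 1.43 ± 0.38) was the 1 expressed gene of 9 in HOXC, and HOXD11 (0.127 ± 0.029) the 1 listed gene of 9 in HOXD. Of 11 HOXA genes 0 were listed, with a median of 6 listed neighbours of 20 around them. Those neighbours include other HOXA genes, so this median is not separate from the 0 of 11. Several HOXB genes share reads with neighbours, since HOXB3 and HOXB4 overlap on the same strand and HOXB2, HOXB3, HOXB5 and HOXB6 overlap antisense RNAs.

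**Figure D2:**
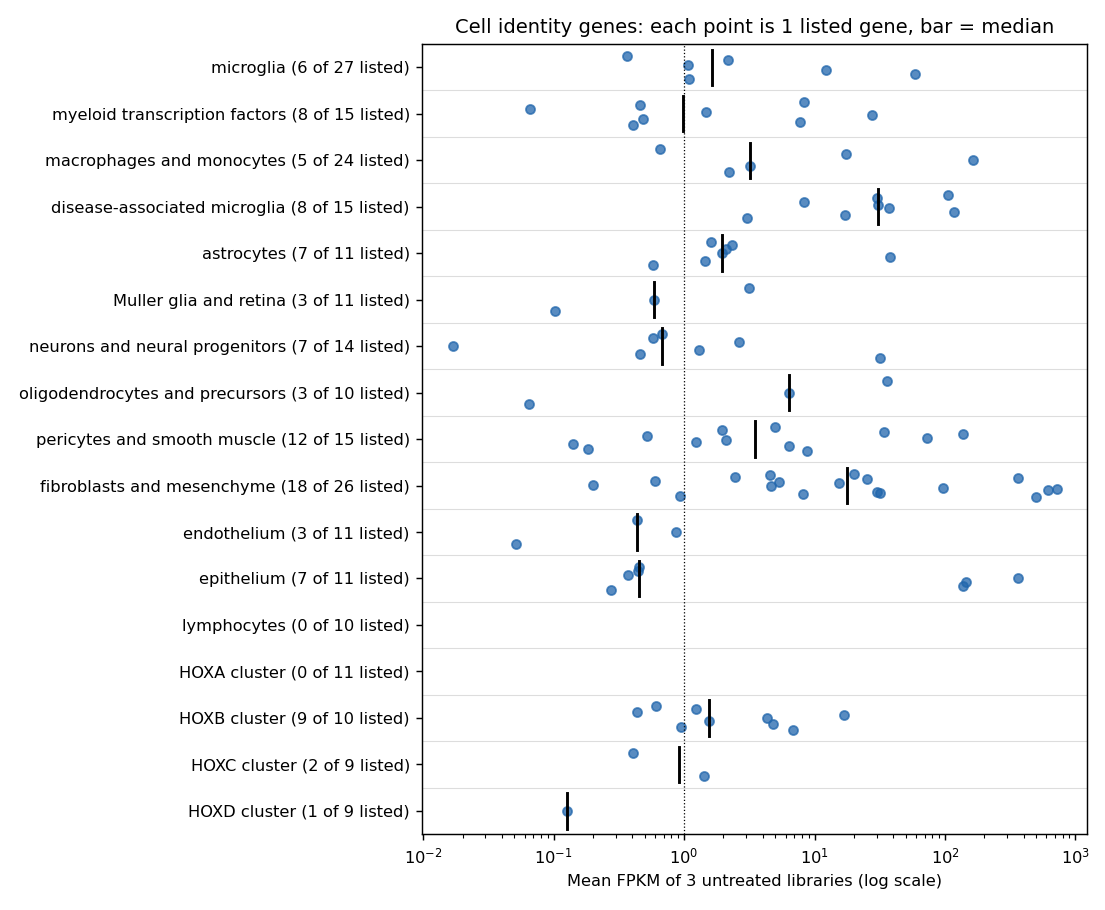
Mean FPKM (log axis, 1 point per listed gene) by cell identity list, with a black bar at the median of the listed members and a dotted line at 1 FPKM. The fibroblast and mesenchyme list reaches 725 FPKM and the epithelial list has 3 keratins apart from 4 genes under 1, while the lymphocyte and HOXA lists hold no point.

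Of 22 scavenger receptors, through which cells take up oxidized lipoprotein, 8 were listed and all 8 expressed. CD44, a hyaluronan receptor counted in some schemes as a scavenger receptor (chromosome 11, 35139171 to 35232402), was highest at 84.03, 83.7 and 85.3 (84.3 ± 0.85), then SCARF2 (22.7 ± 0.26), the lysosomal SCARB2 (14.8 ± 0.44), CD68 and SCARB1, the receptor for high-density lipoprotein (chromosome 12, 124776856 to 124863864, at 9.45, 8.56 and 8.89, mean 8.97 ± 0.45). OLR1, the lectin-like receptor for oxLDL known as LOX-1 (chromosome 12, 10158301 to 10176266), had 3.05, 2.398 and 3.36 (2.93 ± 0.49, counts of 208, 215 and 311), and it overlaps TMEM52B on the opposite strand. CXCL16, a membrane-bound chemokine that also binds oxLDL, had 2.27 ± 0.13, and SCARA3 1.303 ± 0.12. In every library the first 5 kept this order without overlap, whereas the lowest library of OLR1 (2.40) lay next to the highest of CXCL16 (2.39). CD36, MSR1, MARCO, STAB1, STAB2, CD163, AGER and TREM2 were not listed, and of the 20 neighbours of CD36 12 were. AGER lies in the chromosome 6 region described above.

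Receptors of the low-density lipoprotein family were more complete, with 15 of 18 listed and 10 expressed. LRP10 had 18.9, 17.8 and 17.6 (18.1 ± 0.67), above the receptor chaperone LRPAP1 (13.4, 13.6 and 13.8, mean 13.6 ± 0.17) in every library. LRP12 (9.5 ± 0.73) was below both, and LRP1, a large endocytic receptor (chromosome 12, 57128483 to 57213361), was below LRP12 at 6.54, 6.24 and 5.55 (6.11 ± 0.51). LRP5 (3.21 ± 0.41) overlapped with LRP8 (2.91 ± 0.19), and LRP4 (1.54 ± 0.10) with LRP3 (1.44 ± 0.13). The ligase gene MYLIP was at 0.755 ± 0.043. VLDLR (0.635 ± 0.028), LRP11 (0.151 ± 0.026) and SORL1 (0.09498 ± 0.029) were also under 1 FPKM, and LRP1B, LRP2 and LRP6 were not listed.

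Genes that handle lipoprotein lipid after uptake were nearly all expressed, 24 of 29. The caveolar genes CAVIN1 (323 ± 9.6), CAV1 (158, 154 and 159, mean 157 ± 2.2) and CAV2 (18.9 ± 0.78) and the lipid droplet coat gene PLIN3 (107 ± 1.8) were high. The lysosomal cholesterol carriers NPC2 (45.6 ± 0.48) and NPC1 (3.08 ± 0.078), the cholesterol ester hydrolases NCEH1 (28.5 ± 2.2) and LIPA (15.8 ± 0.54), the esterifying enzyme SOAT1 (13.6 ± 0.69) and the droplet gene PLIN2 (22.3 ± 0.98) were in the middle range. The nuclear receptors NR1H2 (LXR beta, 25.5 ± 0.78), PPARD (12.6 ± 0.84), PPARG (2.58 ± 0.11) and NR1H3 (LXR alpha, 1.53 ± 0.15) were expressed. The cholesterol exporter ABCA1 was at 0.556, 0.6296 and 0.513 (0.566 ± 0.059), and ABCG1, FABP4 and LPL were not listed. LIPA overlaps the IFIT genes and ABCA1 overlaps NIPSNAP3B on opposite strands.

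Of 23 Toll-like receptors and adaptors, 13 were listed and 9 expressed, and the receptors were the low part by FPKM. By CPM, the listed receptors TLR4 (10.1), TLR3 (1.55) and TLR6 (1.33) all passed. TLR4 was then above the kinase IRAK2 (7.89) and the adaptor TIRAP (3.47), and below MYD88 (11.5) and the other downstream genes named here. TLR4, which recognizes lipopolysaccharide (chromosome 9, 117704403 to 117724735), had 0.737, 0.804 and 0.829 (0.7901 ± 0.047) from counts of 194, 278 and 296 over a counted length of 12797 bases. TLR3 (0.257 ± 0.027) and TLR6 (0.154 ± 0.012) were lower, LY96, the partner that TLR4 needs to bind lipopolysaccharide, was at 0.0959 ± 0.049 from counts of 6, 12 and 4, and TLR1, TLR2, TLR5, TLR7, TLR8 and TLR9 were not listed. The shared kinases and adaptors downstream were higher: IRAK1 (86.97, 89.8 and 83.99, mean 86.9 ± 2.9), UNC93B1, which escorts endosomal receptors (10.5 ± 0.48), TICAM1 (6.98 ± 0.36), MYD88 (4.16, 4.15 and 4.49, mean 4.27 ± 0.19), TRAF6 (2.93 ± 0.18) and IRAK4 (2.62 ± 0.17). Of 12 cytosolic sensors and adaptors, 6 were expressed, the adaptor MAVS (14.3 ± 0.47), the NOD kinase RIPK2 (8.54 ± 0.32), the DNA sensor CGAS (4.52 ± 0.17), the RNA sensors RIGI (2.78 ± 0.11) and IFIH1 (1.11 ± 0.038), and IFI16 (2.33 ± 0.048). STING1, AIM2 and NOD2 were not listed.

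In the inflammasome list, 8 of 16 were listed and 5 expressed. NLRP3, the sensor (chromosome 1, 247416077 to 247448817), had 0.206, 0.231 and 0.1805 (0.206 ± 0.025, rank 12986), from counts of 21, 31 and 25. CASP1, the protease it activates (chromosome 11, 105025443 to 105036686), had 0.617, 0.626 and 0.543 (0.595 ± 0.046), and CASP4 0.825 ± 0.21. IL18 (chromosome 11, 112143260 to 112164094) had 14.5, 13.7 and 14.4 (14.2 ± 0.46), above IL1B (chromosome 2, 112829751 to 112836779), which had 2.19, 1.65 and 2.15 (1.996 ± 0.30, counts of 78, 77 and 104). The NLRP3 partner NEK7 (14.96 ± 1.0), the pore gene GSDME (4.95 ± 0.35) and NLRP1 (2.93 ± 0.16) were the other expressed members. PYCARD, the adaptor between NLRP3 and CASP1, and GSDMD, the main pore gene, were not listed, with 11 of the 20 neighbours of PYCARD listed.

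**Figure D3:**
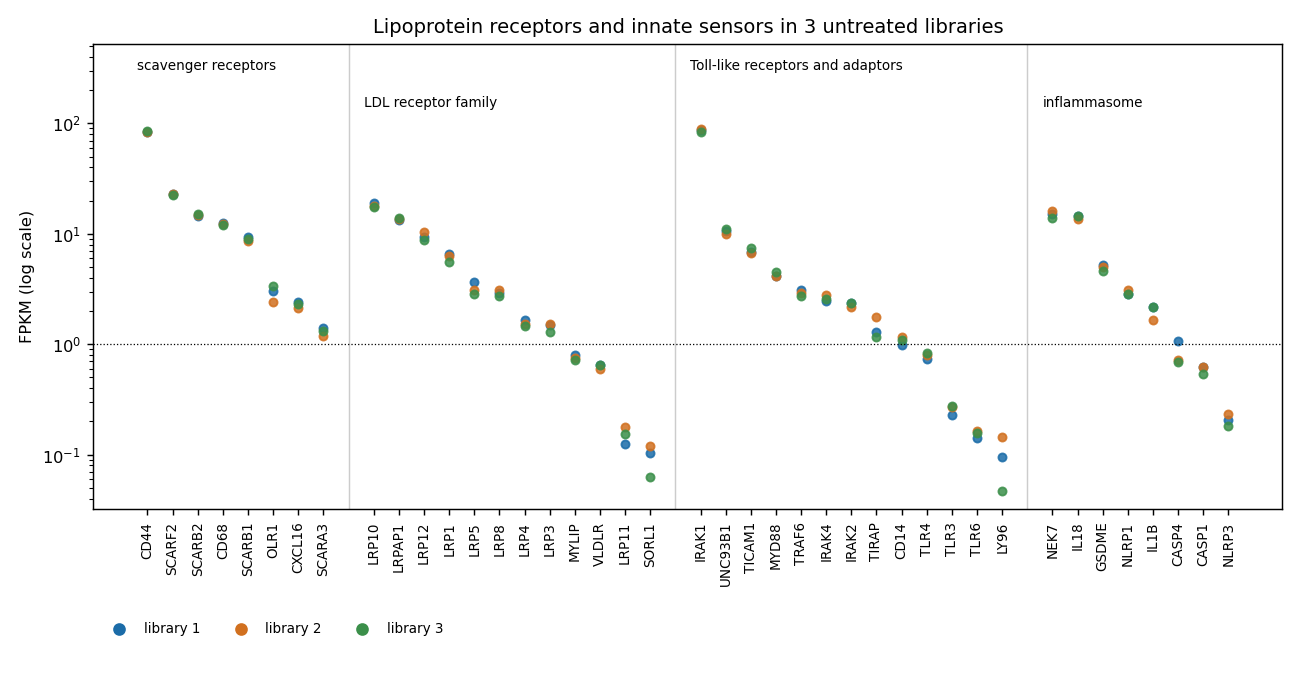
FPKM (log axis) of the scavenger receptors, LDL receptor family, Toll-like receptors with adaptors and inflammasome genes reported here, ordered by mean within each list, with 1 point per library and a dotted line at 1 FPKM. The points of 1 gene lie close together above 1 FPKM and spread for the lowest genes, such as LY96 and SORL1, and the Toll-like receptors themselves lie under the line. By CPM, which does not divide by length, TLR4, TLR3 and TLR6 were over 1.

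Receptors for secreted inflammatory signals differed by family. Of 10 genes of the IL-1 receptor family, 3 were listed. SIGIRR, an inhibitory member, was at 8.05 ± 0.67, and the signalling chains IL1R1 (0.641, 0.839 and 0.689, mean 0.723 ± 0.10) and IL1RAP (0.349 ± 0.020) were under 1 FPKM. IL18R1, IL18RAP and IL1RL1 were not listed. Of 25 genes of the TNF receptor family, 19 were listed and 8 expressed. TNFRSF12A, the receptor for the ligand TWEAK (chromosome 16, 3020368 to 3022383), was the highest receptor in all the receptor lists at 298, 312 and 322 (310.2 ± 12). The TNF receptor TNFRSF1A (chromosome 12, 6328771 to 6342076) had 37.2, 37.04 and 39.5 (37.9 ± 1.4), while TNFRSF1B had 0.282 ± 0.044. CD40 (chromosome 20, 46118314 to 46129858), the costimulatory receptor, had 34.3, 35.6 and 36.7 (35.5 ± 1.2), and the TRAIL receptors TNFRSF10D (31.3 ± 0.20) and TNFRSF10B (23.2 ± 0.74) followed. FAS, TNFRSF9, NGFR and TNFRSF11A were among the 11 listed under 1 FPKM.

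All 6 interferon receptor genes were listed and 4 expressed, IFNAR1 (11.7 ± 0.25), IFNGR1 (8.94 ± 0.28), IFNAR2 (4.35 ± 0.30) and IFNGR2 (2.15, 2.77 and 1.69, mean 2.203 ± 0.54). In the family that signals through gp130, 5 of 7 receptor genes were listed and 4 expressed. IL6ST, which encodes gp130 itself (chromosome 5, 55935095 to 55994963), had 16.6, 17.3 and 16.3 (16.7 ± 0.51), OSMR 10.5 ± 0.66, IL11RA 7.32 ± 0.12, LIFR 1.41 ± 0.038 and IL6R 0.752, 0.817 and 0.631 (0.733 ± 0.094). Of 24 other cytokine receptors, 11 were listed and 7 expressed. Among them, IL7R (chromosome 5, 35856891 to 35879603), known best from lymphocytes, had 16.8, 15.8 and 15.7 (16.1 ± 0.61), with IL13RA1 (12.5 ± 0.65), IL17RC (10.8 ± 0.17), IL17RA (3.62 ± 0.25), IL4R (2.705 ± 0.070) and CSF2RB (1.84 ± 0.25). CSF1R, CSF2RA, IL10RA and IL2RG were not listed, and around CSF2RA 0 of 15 neighbours were.

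Of 19 chemokine receptors, 1 was listed, the decoy receptor ACKR3 (0.208 ± 0.050). Of 21 Fc, complement and prostanoid receptors or surface regulators, 8 were listed and 5 expressed. They were led by CD59 (70.3 ± 1.3) and CD46 (43.2 ± 3.1), which protect cells from complement, and FCGRT (16.9 ± 1.1), which recycles antibody and albumin. The microglial Fc receptors FCGR1A, FCGR2A and FCGR3A and the complement receptors ITGAM, C3AR1 and C5AR1 were not listed. Of 16 purinergic receptors, 7 were listed and 3 expressed (5 by CPM): the adenosine receptors ADORA2B (10.3 ± 0.11) and ADORA1 (2.301 ± 0.060) and the ATP channel P2RX4 (4.91 ± 0.26) passed, and P2RX7, the ATP channel upstream of NLRP3, was not listed. Of 13 receptors of the TGF-beta family, 10 were expressed, including TGFBR2 (3.44 ± 0.11), TGFBR1 (2.26 ± 0.045) and BMPR2 (5.63 ± 0.16). Of 28 growth factor receptors, 16 were, led after AXL by the ephrin receptor EPHA2 (37.3 ± 1.3), the hepatocyte growth factor receptor MET (35.6 ± 0.34), ERBB2 (12.9 ± 0.36), FGFR4 (11.3 ± 0.62) and the stem cell factor receptor KIT (9.51 ± 0.42).

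Length bore on which receptors passed 1 FPKM. FPKM divides by a counted length, here the union of annotated exons, with a median of 4175.5 bases, and some receptors have far longer ones. EGFR had counts of 1519, 1967 and 1906 over 51280 bases, which gave 1.398 ± 0.058 FPKM, and IGF1R counts of 538, 750 and 675 over 50627 bases, which gave 0.514 ± 0.035. Of 375 listed members of all lists, 70 were under 1 FPKM but at 1 CPM or more, and 0 were the reverse. By CPM, 17 instead of 8 genes of the TNF receptor family passed, 8 instead of 5 of the inflammasome list and 3 instead of 1 of the IL-1 receptor family.

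Of 172 ligand genes, 64 were listed and 52 of these expressed without oxLDL, while 108 have no level, and of 37 interleukins 10 were listed and 8 expressed. IL11, a gp130 cytokine of stromal cells (chromosome 19, 55364382 to 55370463), was highest at 32.3, 32.01 and 34.02 (32.8 ± 1.1), above every library of IL18 and of IL32 (13.4, 12.6 and 15.2, mean 13.7 ± 1.3), which overlapped each other. IL15 (2.59 ± 0.28), IL12A (2.36 ± 0.20), EBI3 (2.32 ± 0.12) and IL1B lay close together, each overlapping the next. IL6 (chromosome 7, 22727200 to 22731998), a main inflammatory cytokine, was at 1.47, 1.54 and 1.55 (1.52 ± 0.046, counts of 80, 110 and 115) and overlaps IL6-AS1, IL1A was at 0.559 ± 0.035, and IL10, IL12B, IL23A, IL33 and IL34 were not listed.

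Chemokines numbered 6 of 37 listed and 5 expressed. The neutrophil attractants CXCL1 (4.96, 4.95 and 6.26, mean 5.39 ± 0.75) and CXCL8 (3.73, 3.36 and 3.88, mean 3.66 ± 0.27), the eosinophil attractant CCL26 (4.22 ± 0.54) and the monocyte attractant CCL2 (3.41, 3.098 and 3.97, mean 3.49 ± 0.44) were all under 7 FPKM. CXCL1 was above the other 3 in every library, and CCL26, CXCL8 and CCL2 overlapped in that order. CXCL2 was at 0.615 ± 0.14, and CCL3, CCL4, CCL5, CXCL10 and CXCL12 were not listed. Of 20 neighbours, 0 were listed around CCL3 and CCL4 and 3 around CCL5. In the TNF ligand family, 4 of 18 were listed, of which TNFSF9 (9.02 ± 0.90), CD70 (6.15 ± 0.72) and TNFSF13 (1.13 ± 0.030) were expressed, EDA was at 0.0107 ± 0.0023, and TNFSF10, TNFSF12 and CD40LG were not listed. No interferon gene of 10 was listed.

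Of 12 colony stimulating factors and gp130 ligands, 6 were listed and all 6 expressed, with a median of 2.75 FPKM, against 2.34 for the listed interleukins and 3.58 for the listed chemokines. CLCF1 (18.5, 18.01 and 18.3, mean 18.3 ± 0.25) and LIF (8.28, 7.996 and 8.25, mean 8.18 ± 0.16) led them. CTF1 was at 2.62 ± 0.24, and CSF1, the survival factor of microglia (chromosome 1, 109910506 to 109930992), was at 2.01, 1.96 and 2.11 (2.02 ± 0.079). Of 26 TGF-beta ligands and binding proteins, 15 were listed and 14 expressed, with a median of 11.4 FPKM, led by FSTL1 (268 ± 4.8), FSTL3 (39.9 ± 1.9), TGFB1 (33.9, 32.2 and 35.7, mean 33.9 ± 1.8), TGFB2 (19.5 ± 1.5) and the activin inhibitor FST (18.2 ± 0.39). The activin subunits INHBA (10.5 ± 0.0097) and INHBB (11.4 ± 0.39) and the BMP antagonist NOG (14.7 ± 0.59) were over 10 FPKM. Of 32 growth factors, 23 were listed and 16 expressed, with a median of 3.71 FPKM. The matricellular CCN1 (527, 509 and 529, mean 521 ± 11) and CCN2 (chromosome 6, 131948176 to 131951372, at 209, 195 and 207, mean 204 ± 7.2), whose TATAAA window is printed above, were highest, followed by FGF5 (80.8 ± 2.5), HBEGF (74.4 ± 2.0), MDK (58.2 ± 2.0), VEGFB (32.1 ± 0.97) and VEGFC (20.9 ± 0.92).

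**Figure D4:**
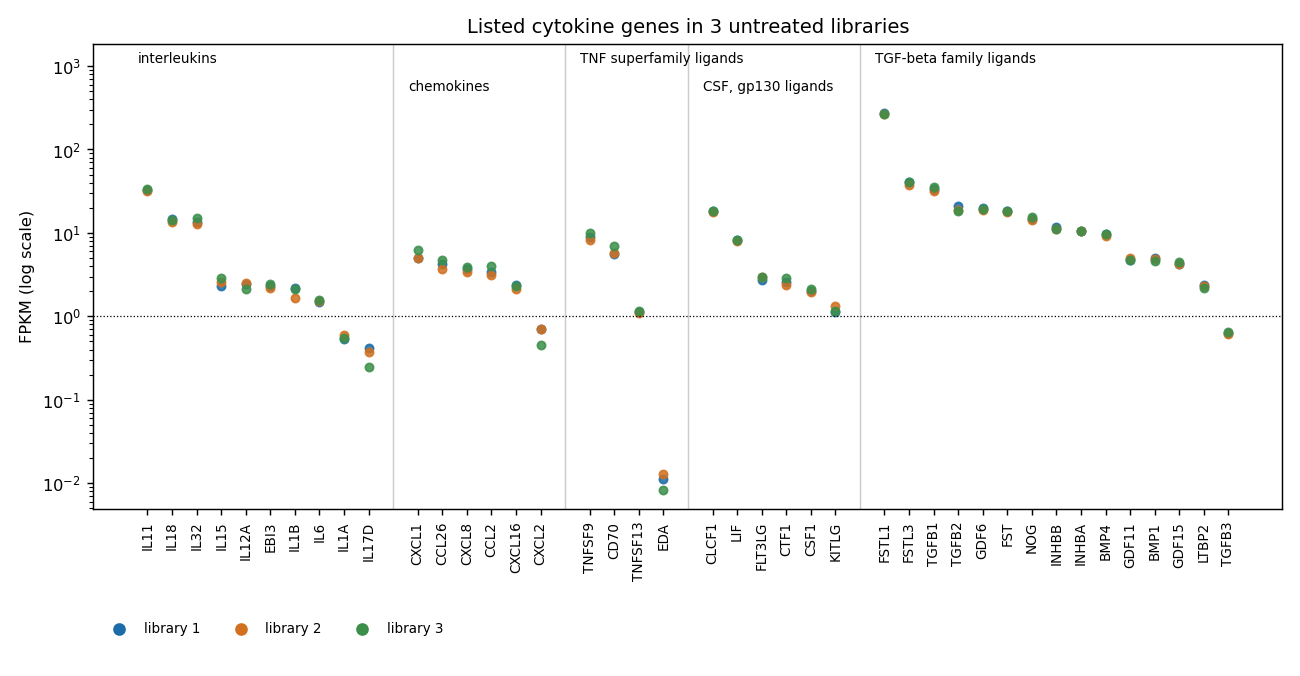
FPKM (log axis) of the listed interleukins, chemokines, TNF family ligands, colony stimulating and gp130 ligands, and TGF-beta family ligands, ordered by mean within each list, with 1 point per library and a dotted line at 1 FPKM. IL11 leads the interleukins at 32.8 FPKM, all chemokines lie under 7 FPKM and FSTL1 is the highest point at 268 FPKM.

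Ligands and receptors were set side by side for 43 known pairs, chosen after their levels were seen. Both partners had a level in 19 pairs. Of these, both were expressed in 14, the ligand but not the receptor reached 1 FPKM in 3, the receptor but not the ligand in 1 and neither in 1. In 9 pairs the ligand was expressed and the receptor was not listed, in 10 the receptor was expressed and the ligand was not listed, and those unlisted partners have no level. IL11 with IL11RA, LIF with LIFR, GAS6 with AXL, TGFB1 with TGFBR2, HBEGF with EGFR, FGF5 with FGFR1 and KITLG (1.204 ± 0.11) with KIT were pairs in which both passed. For CSF1, IL18, CCL2, CXCL8, CLCF1 and IL15 the ligand was expressed and the receptor chain (CSF1R, IL18R1, CCR2, CXCR2, CNTFR and IL15RA) was not listed. For IL1B with IL1R1, IL6 with IL6R and TNFSF9 with TNFRSF9 the ligand passed and the receptor was listed under 1 FPKM. By CPM all of these passed. IL1R1 (4.66) was then above IL1B (3.46) and IL6R (5.12) above IL6 (4.03), while TNFSF9 (14.7) stayed above TNFRSF9 (1.48). For TNFRSF12A, TNFRSF1A, CD40, MET, IL7R and OSMR the receptor was expressed and its ligand (TNFSF12, TNF, CD40LG, HGF, IL7 and OSM) was not listed, and TNF lies in the chromosome 6 region.

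**Figure D5:**
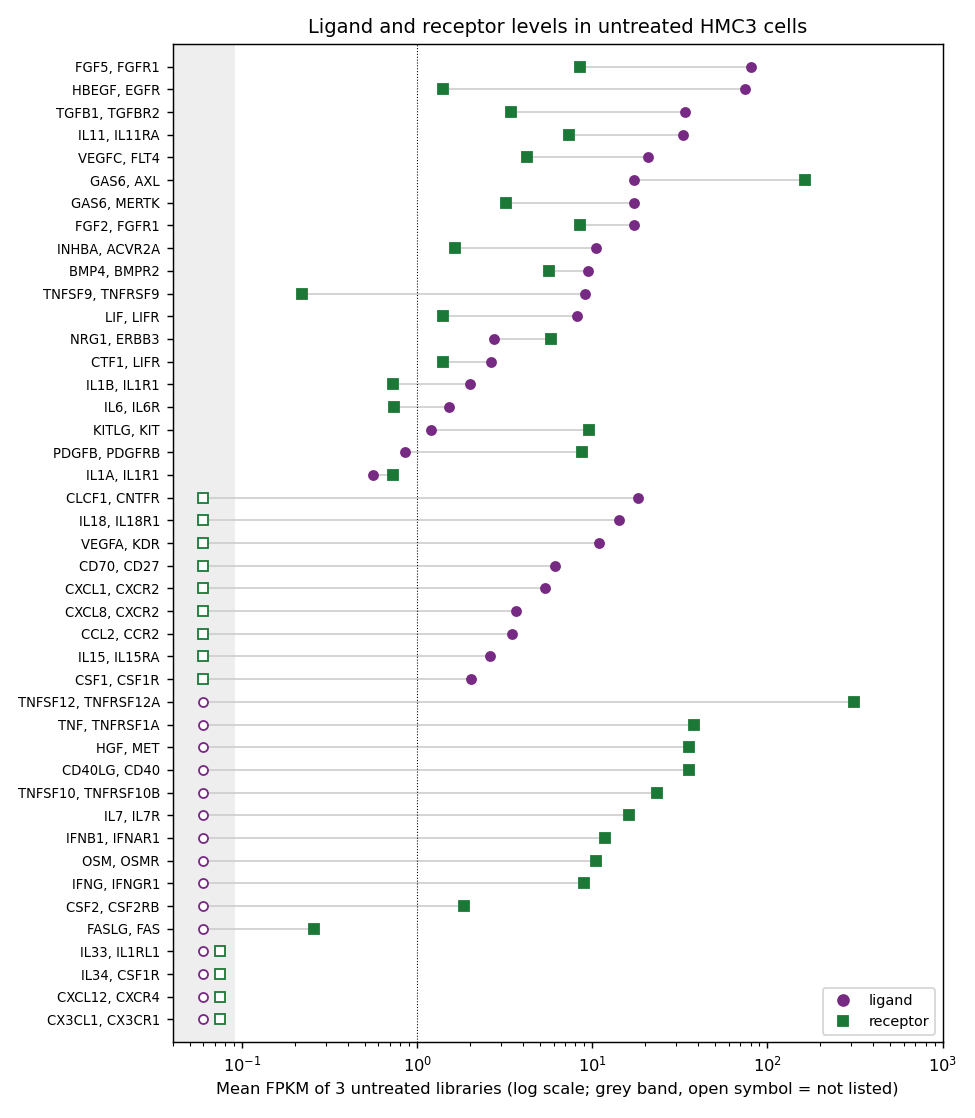
Mean FPKM (log axis) of ligand (circles) and receptor (squares) for 43 pairs, joined by a line, with open symbols in the grey band for genes that are not listed, which have no level, and a dotted line at 1 FPKM. Both symbols lie right of the dotted line in 14 pairs, and the widest gap between listed partners belongs to HBEGF (74.4) and EGFR (1.40). This gap depends on counted length, 2358 bases for HBEGF and 51280 for EGFR. By CPM, which does not divide by length, HBEGF was at 175.5 and EGFR at 71.7.

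Signalling factors behind these receptors were broadly present: 22 of 28 genes for NF-kB, STAT and interferon regulatory factors were expressed. RELA (36.2, 35.4 and 37.5, mean 36.4 ± 1.0), STAT3 (31.03, 30.8 and 30.8, mean 30.9 ± 0.12), the cytokine-induced inhibitor SOCS3 (27.9 ± 0.13) and the NF-kB inhibitor NFKBIA (22.9, 22.1 and 26.2, mean 23.7 ± 2.2) were among the highest. The induced inhibitor TNFAIP3 was at 1.13 ± 0.11 and IRF7, which rises with interferon, at 0.403 ± 0.0098. IRF9 was not listed, nor was any of its 20 neighbours. Of 17 complement components, C3 (0.976, 1.03 and 0.904, mean 0.969 ± 0.061) and C1S (0.482 ± 0.045) were listed, and C3 passed 1 FPKM in library 2 alone (both passed by CPM). For antigen presentation, 6 of 26 genes were listed and 4 expressed, CD74 among them. B2M (31.4 ± 1.2) and the checkpoint ligand CD274 (7.24 ± 0.53) were expressed, and CIITA, the activator of class II genes, was at 0.441 ± 0.029. The class II genes of the list, such as HLA-DRA, lie in the chromosome 6 region and have no level here.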

How the data were processed

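Poly-A RNA of HMC3 cells was measured in 3 untreated libraries of an 18-library series. The deposited values are FPKM, scaled by the authors to length and library total. Per the submitters' processing notes, HISAT2 2.0.5, featureCounts, DESeq2 and hg38 were used, without their order. The annotation release, the handling of strand and the rule for listing genes are not given in the sources used here. Whole counts, lengths and library totals were recovered from the FPKM steps (all 13992 genes within 0.0002 counts). On simulated data, 99.0% of 8708 genes came back exactly. The sources do not tell reads from fragments here. Levels were averaged over the 3 libraries (Python 3.11.15, numpy 2.4.6, pandas 2.3.3), with a limit of 1 FPKM and a pseudocount of 0.5 for log2 spread. Symbols were matched to RefSeq (GRCh38.p14) for 13728 genes (98.1%). The other 264 symbols had no match, so an unlisted member could be among them under an older symbol. The kit does not mark strand, and 3079 listed genes (22.0%) overlap another on the opposite strand. Genes named are the 40 highest, up to 8 per list, members under 1 FPKM or not listed, the 10 most variable at 10 FPKM or more, and CD36, NLRP3, IL1B, PYCARD, CASP1, IL18, OLR1, TLR4, CD14, CD68, PDGFRB and VIM. Some of these genes are not reported here. Others, such as MKI67, CDKN2A, NPC1, PPARG, INHBA, EGFR and SNHG5, were picked with their values in view. The 44 lists (754 genes) and this rule were written with earlier results of these data known, and the pairs, broad families, promoters shown and chromosome 6 region were chosen after seeing values. Alternatives were other limits, rescaling, medians and leaving out each library.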

Additional observations from a re-analysis of the deposited data

How the results depend on the processing

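The 100 highest genes held 30.9% of the summed FPKM without the mitochondrially encoded genes and 30.8% without the ribosomal protein genes, against 34.8% with both. The number of expressed genes was 9048 to 12637 over all settings, of identity genes 54 to 86, of receptor genes 81 to 132 and of cytokine genes 48 to 59, all within 1.5 times the main counts. Leaving out each library in turn gave 10481 to 10515 genes, 65 to 66 identity genes, 95 to 96 receptor genes, 52 cytokine genes, a spread of 0.0398 to 0.0535 (log2, main 0.0578) and a share of 34.4% to 35.1%. Of 352 counts for single lists, 29 moved by over 1.5 times. Microglia markers went from 5 to 3 at a limit of 2 FPKM or with all 3 libraries required, and complement from 0 to 1 without library 3 (C3) and to 2 by CPM or when rescaled to a sum of 1000000 (TPM). By TPM and by CPM alike, myeloid transcription factors went from 4 to 7, neuronal and progenitor genes from 3 to 6, epithelial genes from 3 to 5 and genes of Müller glia and retina from 1 to 2. Endothelial genes went from 0 to 2 by TPM and to 1 by CPM, TNF receptors from 8 to 13 and 17, IL-1 receptors from 1 to 2 and 3, and HOXC genes from 1 to 2 by TPM. By CPM alone, purinergic receptors went from 3 to 5 and inflammasome genes from 5 to 8. At 2 FPKM astrocyte genes went from 6 to 3 and HOXC genes from 1 to 0. At 0.5 FPKM neuronal and progenitor genes went to 5, genes of Müller glia and retina and IL-1 receptors to 2, and endothelial and complement genes to 1. The settings by CPM and without the chromosome 6 region were chosen after seeing the data. No paired analysis was possible because 1 group was described and nothing was tested. Depth limits genes under 1 FPKM, where the median count was 36.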

Other observations

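Long non-coding RNAs that host small nucleolar RNAs were high in the untreated cells. SNHG5 had 293, 314 and 342 (316 ± 25 FPKM), ZFAS1 173 ± 7.8, SNHG1 152 ± 3.3, GAS5 127 ± 3.8 and SNHG16 119.8 ± 6.5, and NORAD, a cytoplasmic RNA that binds Pumilio proteins, 104 ± 6.2. These RNAs overlap small nucleolar RNAs on the same strand in the case of SNHG5, ZFAS1, SNHG1 and GAS5.

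The genes that varied most between the 3 libraries were mostly small RNA genes. Of the 4831 genes at 10 FPKM or more, 98 encode small RNAs, and 48 of the 50 with the highest coefficient of variation were among these. MIR193A had 6.63, 7.99 and 18.7 FPKM from counts of 12, 19 and 46 (coefficient of variation 59.6%), MIR4426 16.2, 9.99 and 6.26 and SNORD18C 15.2, 13.3 and 5.88. SNORD4A, SNORD27, SNORD5, BCYRN1, SNORA73A, MIR3654 and SNORA4 were the others of the 10 most variable, and BCYRN1 is annotated as a long non-coding RNA. Several overlap a longer listed gene, whose reads cannot be told apart. SNORD18C overlaps RPL4, SNORD4A overlaps RPL23A and SNORD27 overlaps SNHG1. SNORD5 overlaps TAF1D, SNORA73A overlaps RCC1 and SNHG3, and MIR3654 overlaps CHCHD3. Counted lengths of 56 to 207 bases turned few counts into levels over 10 FPKM. The most variable protein-coding gene was MMP1, a collagenase, at 18.8, 26.99 and 20.03 (coefficient of variation 20.2%), highest in library 2.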
